A study of Saccharomyces cerevisiae with 12 samples.

Results

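The 16 centromeres of budding yeast and the CpG dinucleotides around them were examined for accessibility to a DNA methyltransferase. Members were chosen by position alone. They are the 16 centromere features of the R64 annotation and the 1638 nuclear CpG sites within 2 kb of a centromere centre, out of 353646 nuclear CpG sites with at least 5 calls in each of 12 libraries. No CpG site within 2 kb was lost to that minimum. Of the members, 26 lay in the annotated centromere (the core), 302 between the core and 500 bp from the centre (the inner flank) and 1310 between 500 and 2000 bp (the outer flank).

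The libraries came from ODM-seq, in which the bacterial enzyme M.SssI methylates CpG sites of formaldehyde-crosslinked chromatin where no nucleosome or other protein covers them, and Nanopore reads give the methylation. All cells derived from clone A9 of the ABF1-aa-V5 strain in the BY4741 background. In this anchor-away strain rapamycin tethers the tagged chromosomal Abf1, an essential general regulatory factor that binds promoters and positions nucleosomes, and draws it out of the nucleus. All cultures grew in YNB medium lacking leucine and received 8 µg/mL rapamycin for 75 min, so the controls carried the tagged allele and the drug as well. They differed in the pRS315 (LEU2) plasmid: with wild-type ABF1 (WT Abf1), with no insert (no Abf1) or with an Abf1 whose essential motif was shuffled (EM shuffle). The paper describes its designed variants as a minimal system without the disordered region IDR1, with an SV40 nuclear localization signal and a Flag tag. By that account EM shuffle differs from WT Abf1 in more than the motif. Each construct had 2 biological replicates, each with aliquots taken after 3 h and 4 h of methylation, which are technical replicates. The labels date WT Abf1 and no Abf1 together and EM shuffle later, so batch and construct cannot be told apart for the latter. The study's methods describe biological replicates as separate clones picked after transformation, and the labels do not tie a library to a clone.

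Budding yeast has point centromeres, on which a single microtubule attaches through 1 kinetochore. Each consists of CDEI, bound by the helix-loop-helix protein Cbf1, the AT-rich CDEII, wrapped on a nucleosome with the histone H3 variant Cse4, and CDEIII, bound by the CBF3 complex that is essential for kinetochore assembly. Nucleosomes flank this structure on both sides, and cohesin is enriched in the surrounding chromatin.

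The sequences of 5 centromeres are shown because the element-level results turn on them: CEN5 and CEN16 had the lowest and the highest core methylation in WT Abf1, and CEN6, CEN9 and CEN14 hold CpG sites described later. They are read 5′ to 3′ in the CDEI-to-CDEIII direction from the R64 reference (sacCer3), and capitals mark CDEI at the left and CDEIII at the right. CEN5 lies at chrV:151987-152104 (+), CEN6 at chrVI:148510-148627 (+), CEN9 at chrIX:355629-355745 (+), CEN14 at chrXIV:628758-628875 (+) and CEN16 at chrXVI:555957-556073 (+).
CEN5: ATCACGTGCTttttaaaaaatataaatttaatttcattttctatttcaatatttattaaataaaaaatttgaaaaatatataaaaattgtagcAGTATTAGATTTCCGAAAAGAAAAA
CEN6: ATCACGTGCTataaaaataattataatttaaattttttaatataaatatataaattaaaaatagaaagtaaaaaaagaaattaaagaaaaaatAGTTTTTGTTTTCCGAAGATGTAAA
CEN9: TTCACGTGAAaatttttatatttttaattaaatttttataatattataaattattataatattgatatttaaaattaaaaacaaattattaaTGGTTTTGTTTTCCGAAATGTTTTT
CEN14: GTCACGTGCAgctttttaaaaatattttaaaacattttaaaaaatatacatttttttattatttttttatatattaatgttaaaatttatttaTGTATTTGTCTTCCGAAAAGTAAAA
CEN16: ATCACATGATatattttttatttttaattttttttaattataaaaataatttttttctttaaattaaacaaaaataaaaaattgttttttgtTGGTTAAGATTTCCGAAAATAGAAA
All 16 cores lie between genes and are 111 to 120 bp long. CDEI is annotated as 10 bp, CDEIII as 25 bp, and CDEII as 76 to 85 bp with 86.9% to 97.6% A or T. Over the whole core the A and T content was 79.8% to 88.9%, whereas 2986 windows of 120 bp elsewhere in the nuclear genome had a median of 62.0% and 7 of them reached the lowest centromere. CDEII held no CpG in any centromere. CDEI held a CpG in 8 centromeres, within TCACGTG, and CDEIII held 1 in each of the 16 within its conserved CCGAA stretch, with a further CpG beside it in CEN11 and CEN13. The Cbf1 motif TCACNTG, sought on both strands, occurred at all 16 cores and in 4.09% of the other windows of 121 bp. The octamer TTTCCGAA of CDEIII occurred exactly in 9 of the 16 cores and in 0.536% of the others, and the other 7 cores differed from it at 1 base.

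Matches to the Abf1 consensus, 13 bases long, were sought on both strands within 2 kb of each centre. They occurred at 6 of 16 centromeres, with 7 matches in all, against 42.8% of 2986 windows of the same length elsewhere. A match is a description of the sequence and not a bound site. The following windows are shown because called CpG sites described later at CEN6, CEN9, CEN14 and CEN16 lay within 200 bp of them. That of CEN2 is shown because the CpG sites beside it were not called between no Abf1 and WT Abf1. The 13 matching bases are in capitals.
CEN2 (chrII:238381-238421, -): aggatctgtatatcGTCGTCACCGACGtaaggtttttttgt
CEN6 (chrVI:148693-148733, -): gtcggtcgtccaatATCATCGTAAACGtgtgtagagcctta
CEN9 (chrIX:355501-355541, +): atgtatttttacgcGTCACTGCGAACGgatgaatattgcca
CEN14 (chrXIV:627284-627324, -): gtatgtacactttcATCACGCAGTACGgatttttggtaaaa
CEN16 (chrXVI:554447-554487, -): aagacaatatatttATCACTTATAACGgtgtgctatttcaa
The centres of these matches lay 136 bp, 144.5 bp, -166 bp, -1512.5 bp and -1548 bp from the centre of their centromere, where negative distances are on the CDEI side. The further matches lay at 416 bp from CEN2 and at 1880.5 bp from CEN11, inside the coding sequence of DID4, a subunit of the ESCRT-III membrane-remodelling complex. The motif TTACCCG of Reb1, another general regulatory factor, occurred at 5 of 16 centromeres and in 21.6% of the other windows.

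Nuclear calls per library ranged from 13253872 to 37756743, and mean coverage of the core CpG sites from 40.3 to 104 calls, so core means rest on 1047 to 2704 calls per library. Coverage over ABF1 relative to its flanks was 1.78 to 1.92 in the WT Abf1 libraries, 0.821 to 1.06 in no Abf1 and 0.901 to 1.10 in the EM shuffle libraries. The plasmid copy of ABF1 was thus not seen in the last of these, which are therefore called the libraries labelled EM shuffle. A variant that lacks part of ABF1 would add less to this ratio than the full gene. Chromosome XI was covered at 1.16 times the nuclear median in both aliquots of replicate 1 labelled EM shuffle. In replicate 2 it was covered at 1.97 and 2.02 times, and in the other constructs at 0.996 to 1.04 times. This bears on CEN11, and on the ratio over ABF1, which lies on that chromosome. The pRS315 backbone carries a cloned CEN6 fragment whose reads could map to chromosomal CEN6. Coverage within 100 bp of CEN6 was 0.995 to 1.45 times the nuclear median, and between 1000 and 2000 bp from it 0.878 to 1.36 times. The share of plasmid reads at CEN6 was not tested.

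The CpG sites of centromere cores, all in CDEI or CDEIII, were protected from methylation, and the immediate flanks were open. Core values therefore do not cover CDEII. Values are corrected percent methylation, the share of methylated calls divided by the authors' construct factor, so a high value means accessible DNA. Core methylation in WT Abf1 was 13.8% and 17.6% at 3 h and 4 h in replicate 1, and 10.8% and 11.4% in replicate 2. In no Abf1 it was 12.4% and 13.6% in replicate 1, and 15.2% and 14.9% in replicate 2. For EM shuffle, as labelled, the same order gave 13.6%, 14.3%, 11.9% and 11.2%. The constructs overlapped completely in the core, while every one of the 12 libraries had its core below its outer flank and its inner flank above it. The means were 13.3% ± 3.04 in the core, 42.7% ± 1.76 in the inner flank and 29.7% ± 1.67 in the outer flank of WT Abf1 (SD, n = 2). No Abf1 had 14.03% ± 1.45, 40.7% ± 0.681 and 28.3% ± 0.831, and the libraries labelled EM shuffle 12.7% ± 1.78, 43.7% ± 0.208 and 29.1% ± 0.159 (SD, n = 2).

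**Figure D1:**
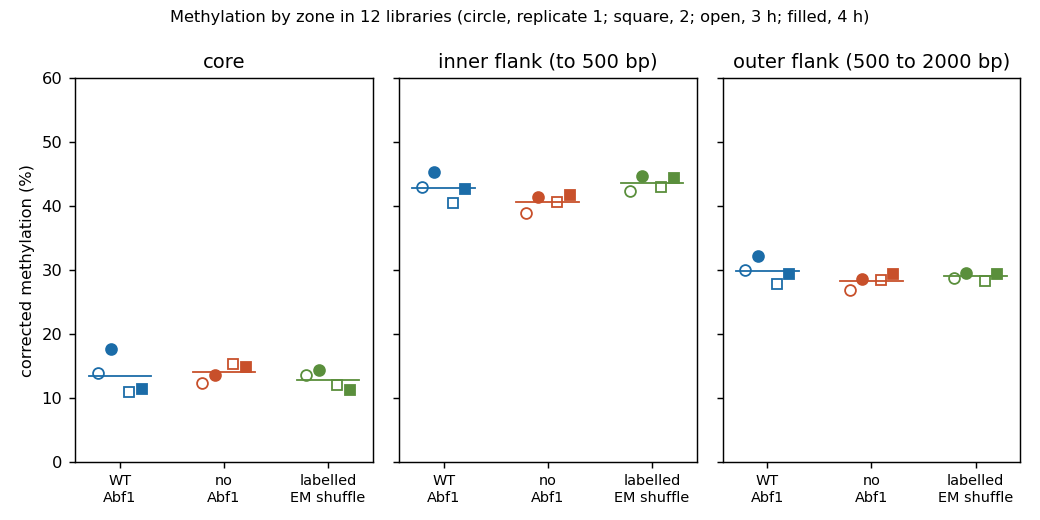
Corrected percent methylation (y axis) of the core, inner flank and outer flank in each of the 12 libraries, by construct (x axis); lines are the construct means. Every library has its core, between 10.8% and 17.6%, below its outer flank, and its inner flank above it, and the constructs overlap in the core.

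Across the 6 replicates the core lay 15.7 percentage points below the outer flank (SD 1.48, lower in 6 of 6, p = 0.03125, two-sided exact sign-flip test). The inner flank lay 13.3 points above it (SD 1.05, higher in 6 of 6, p = 0.03125, two-sided exact sign-flip test). This p is the smallest that 6 replicates can give. Windows of the same 3 geometries tiled over the rest of the nuclear genome gave a background of 28.7% for 2906 core-sized windows, 29.1% for inner and 29.7% for outer ones. The centromere core was 15.4 points lower than its background (SD 1.152, p = 0.03125) and the inner flank 13.2 points higher (SD 1.36, p = 0.03125, two-sided exact sign-flip tests with n = 6). The outer flank differed from its background by -0.658 points (SD 0.738, p = 0.125, two-sided exact sign-flip test), less than the spread between replicates. That difference depended on the weighting: with each window given equal weight in place of each call, the outer flank lay 1.24 points above its background (p = 0.03125, two-sided exact sign-flip test). The low core depends on its annotated borders. When the core was widened to 100 bp either side of the middle, it took in the open CpG sites next to the borders and lay 8.47 points above the outer flank.

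Single centromeres differed in level and shared the order of zones. In WT Abf1 the core was lowest at CEN5 (6.89%), had a median of 13.5% over the 16 centromeres and was highest at CEN16 (21.6% ± 11.6, SD, n = 2). These cores hold different CpG sites. The core of CEN5 pools a CDEI CpG (2.12%) with a CDEIII CpG (12.5%), whereas that of CEN16 holds a CDEIII CpG only. On CDEIII alone the lowest was CEN13 (8.39%) and the highest CEN12 (29.4%). In each of the 3 constructs, 16 of 16 cores were below their own outer flank. All 16 were below the median of the other core-sized windows, 22.8% in WT Abf1, whose 10th percentile was 13.4%, close to the centromere median. The inner flank in WT Abf1 ran from 30.9% at CEN15 to 54.0% at CEN8, with a median of 41.7%. It was above the outer flank at 15 of 16 centromeres in each construct. The exception was CEN5, whose outer flank of 42.9% was the highest of the 16, against an inner flank of 31.9%. Outer flanks otherwise began at 24.0% at CEN1 and had a median of 29.0%.

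Within the inner flank, methylation pooled over centromeres alternated with distance. In WT Abf1 the bin of 50 bp centred at -100 bp had 73.2% ± 3.14 (10 CpG sites of 9 centromeres) and that at 100 bp 75.2% ± 1.99 (22 CpG sites of 12 centromeres; SD, n = 2). Each of these 9 and 12 centromeres was above its own outer flank there. The bins at -50 bp and 50 bp, which hold mostly CDEI and CDEIII, had 14.7% ± 1.94 and 23.6% ± 6.65. The bins at -100 bp and 100 bp were the highest of the region in WT Abf1 and that at -50 bp the lowest, while several bins of the outer flank were lower than that at 50 bp. Farther out on the CDEI side, methylation was 26.1% at -200 bp, 50.2% at -250 bp, 50.01% at -300 bp, 17.7% at -400 bp and 39.9% at -450 bp. On the CDEIII side it was 63.9% at 150 bp, 30.6% at 200 bp, 26.9% at 250 bp, 47.4% at 300 bp, 27.7% at 400 bp and 48.03% at 500 bp. In these pooled means both sides had a low bin at 200 bp, a higher one at 300 bp and a low one at 400 bp. They differed at 250 bp and at 150 bp, where the CDEI side had 36.6%. Each bin pooled few and differing centromeres. At -300 bp 8 of 10 and at 300 bp 10 of 14 were above their own outer flank. At -400 bp this held for 1 of 7 and at 400 bp for 4 of 9. At -250 bp it held for 4 of 8, which ran from 11.8% to 80.8%. The inner flank was 45.4% ± 1.79 on the CDEIII side and 39.4% ± 1.67 on the CDEI side in WT Abf1 (SD, n = 2), on 166 and 136 CpG sites. At the outer limit of the region no step was seen: 90 CpG sites between 1900 and 2000 bp had 33.8% ± 1.11, and 98 sites between 2000 and 2100 bp, outside the membership rule, had 31.5% ± 1.54 in WT Abf1 (SD, n = 2).

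**Figure D2:**
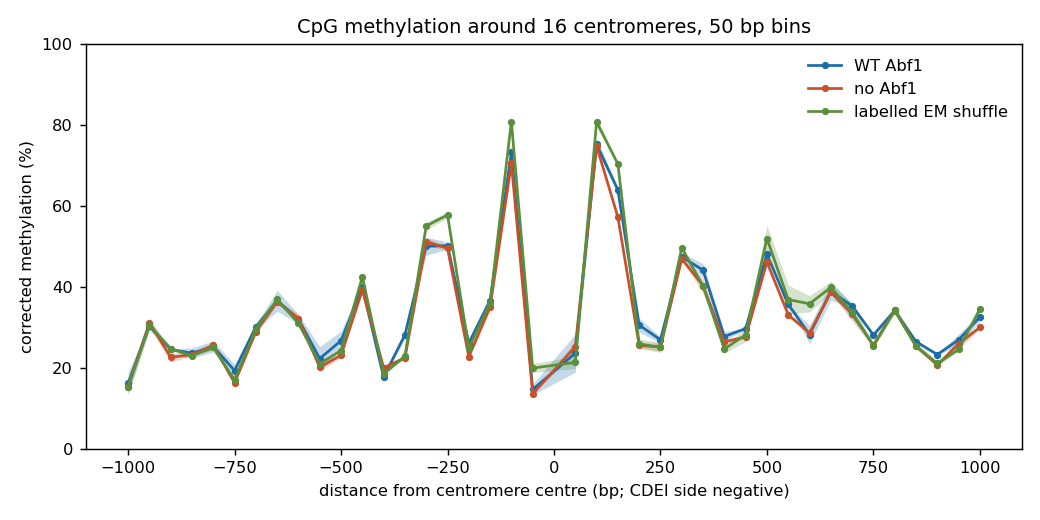
Mean corrected percent methylation (y axis) of CpG sites in bins of 50 bp by distance from the centromere centre (x axis, CDEI side negative), over 16 centromeres; points are the mean of 2 replicates and bands span both. Methylation in WT Abf1 falls to 14.7% and 23.6% in the bins next to the centre and reaches 73.2% and 75.2% in the next bins outward; the bin at the centre holds no CpG.

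The 2 protein-bound elements differed. The CpG of CDEI, in the Cbf1 site, was the least methylated: 5.55% ± 0.415 in WT Abf1, 5.56% ± 0.452 in no Abf1 and 10.1% ± 1.27 in the libraries labelled EM shuffle (SD, n = 2, 8 centromeres). In WT Abf1 it ran from 1.67% at CEN6 to 13.8% at CEN9, with a median of 4.70%. The CpG in the conserved stretch of CDEIII had 17.9% ± 4.83, 18.8% ± 2.10 and 14.2% ± 2.47 over all 16 centromeres (SD, n = 2), and in WT Abf1 ran from 8.39% at CEN13 to 29.4% at CEN12. At the 8 centromeres with both CpG sites, CDEIII exceeded CDEI by 12.5 percentage points (SD 5.63, higher in 6 of 6 replicates, p = 0.03125, two-sided exact sign-flip test). It was the higher of the pair at 8 of 8 centromeres in WT Abf1, 8 of 8 in no Abf1 and 7 of 8 in the libraries labelled EM shuffle.

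The same motifs elsewhere in the genome were more accessible. CpG sites in 525 copies of TCACGTG outside centromeres had 34.6% ± 1.06 in WT Abf1 (SD, n = 2), and CDEI lay 29.3 points below them (SD 1.13, lower in 6 of 6, p = 0.03125, two-sided exact sign-flip test). CpG sites in 541 copies of TTTCCGAA had 29.7% ± 2.13 (SD, n = 2). CDEIII was here taken only at the 8 centromeres with a CpG in both elements, where it had 20.7% ± 4.86 in WT Abf1 (SD, n = 2). It lay 10.1 points below those copies (SD 3.63, lower in 6 of 6, p = 0.03125, two-sided exact sign-flip test). By mean, 7 of the 8 CDEI sites were higher in the libraries labelled EM shuffle than in either other construct, with no overlap of replicates; the exception was CEN14 (7.17% in WT Abf1, 2.83% in the libraries labelled EM shuffle). The same held for 11.9% of all nuclear CpG sites, and without the construct factor for 1.76% of them and again 7 of the 8. Over the 8 sites the difference from WT Abf1 was 4.58 points (SD 1.34, p = 0.333, two-sided exact permutation test, the smallest p that 2 replicates against 2 can give). For the copies of TCACGTG outside centromeres it was 5.51 points (SD 1.06, p = 0.333, two-sided exact permutation test). Without the construct factor the differences were 3.27 points for CDEI (SD 1.18) and 0.344 points for the copies elsewhere (SD 1.06). None of the CDEI sites was called singly in that comparison, where 0.493% of nuclear CpG sites were called.

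**Figure D3:**
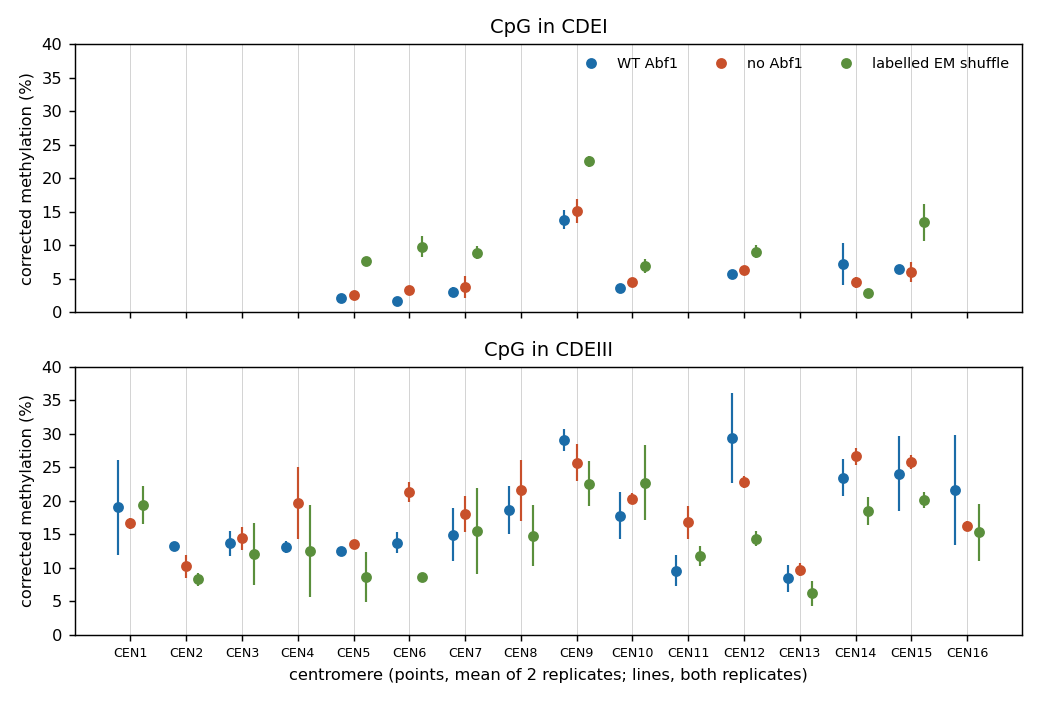
Corrected percent methylation (y axis) of the CpG in CDEI (upper panel, 8 centromeres) and of the CpG in the conserved stretch of CDEIII (lower panel, 16 centromeres) by centromere (x axis); points are means of 2 replicates, lines join both. CDEI ranges from 1.67% to 13.8% in WT Abf1 and CDEIII from 8.39% to 29.4%.

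With longer incubation the flanks gained methylation, and in the core no gain was detected. From 3 h to 4 h the inner flank gained 1.96 percentage points (SD 0.578, higher in 6 of 6, p = 0.03125) and the outer flank 1.45 (SD 0.54, higher in 6 of 6, p = 0.03125, two-sided exact sign-flip tests). The core gained 0.870 points (SD 1.62, p = 0.25, two-sided exact sign-flip test). WT Abf1 replicate 1 gained 3.81 points, and without that replicate the mean gain was 0.282 points. The genome average also rose in 6 of 6 preparations. Uncorrected, it was 23.6% to 29.2% at 3 h and 25.1% to 30.6% at 4 h. The gains of the core and the flanks were not tested against each other or against that of the genome.

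The constructs were then compared to ask whether loss of Abf1 from the nucleus, or the labelled variant, changed accessibility at centromeres. Mean core methylation differed from WT Abf1 by 0.773 points in no Abf1 (SD 3.37, exact permutation p = 1.00) and by -0.534 points in the libraries labelled EM shuffle (SD 3.52, p = 1.00). For the inner flank these differences were -1.99 (SD 1.89, exact permutation p = 0.333) and 1.06 points (SD 1.77, p = 1.00), and for the outer flank -1.39 (SD 1.87, p = 0.667) and -0.574 points (SD 1.68, p = 1.00). Between the libraries labelled EM shuffle and no Abf1 the inner flank differed by 3.06 points (SD 0.712, exact permutation p = 0.333). The replicates did not overlap, at 43.6% and 43.9% against 40.2% and 41.2%. Without the construct factor this difference was -4.32 points (SD 0.733). The core and the outer flank differed by -1.31 (SD 2.30, exact permutation p = 0.667) and 0.811 points (SD 0.846, p = 0.333). All are two-sided exact permutation tests of 2 replicates against 2, which cannot reach 0.05. The depth of the core below the outer flank differed by 2.16 points between no Abf1 and WT Abf1 (SD 1.4999, p = 0.333, exact permutation test). With this replication no difference between constructs in the mean of a zone could thus pass the threshold.

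Each of the 48 zones of single centromeres was also tested in a quasi-binomial logistic model fitted to all 8972 zones of the genome, which gives the change in log2 odds of methylation relative to the genome average of the construct. A zone or site is called where its Benjamini-Hochberg adjusted p, from moderated variances (limma), is under 0.05. Against WT Abf1, 0 of 48 zones were called in no Abf1 and 0 of 48 in the libraries labelled EM shuffle, where the background over all zones was 0% and 0%. Between the libraries labelled EM shuffle and no Abf1 it was 0 of 48, against a background of 0.0223%. At an unadjusted p under 0.05 in this model there were 2, 1 and 2 of the 48 zones. Elsewhere, 115 of 2906 core-sized, 176 of 3003 inner-sized and 195 of 3015 outer-sized windows had such a p in no Abf1 against WT Abf1. In the libraries labelled EM shuffle these counts were 32, 69 and 90 against WT Abf1, and 117, 220 and 236 against no Abf1. Outer flanks had a lower estimate without Abf1 than with WT Abf1 at 15 of 16 centromeres with a median of -0.098, whereas outer-sized windows elsewhere had a median of 0.020. The zone nearest to a call was the outer flank of CEN5, at 0.17 in the libraries labelled EM shuffle relative to no Abf1 (SE 0.0415, adjusted p = 0.301, quasi-binomial model with limma). It was called with only that pair of constructs fitted (adjusted p = 0.0377). The inner flank of CEN6 followed, at 0.429 in the same comparison (SE 0.118, adjusted p = 0.362) and -0.393 in no Abf1 against WT Abf1 (SE 0.108, adjusted p = 0.441). With the genome average taken out per replicate, CEN5 (adjusted p = 0.0208) and CEN6 (adjusted p = 0.00273 and 0.00282) were called, together with the outer flank of CEN15 in no Abf1 against WT Abf1 (-0.205, adjusted p = 0.00329). The share of all 8972 zones called in these alternative settings is not given here. The background of the main model does not apply to them, so they are not read as a result about centromeres.

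Single CpG sites were called at 15 of 16 centromeres when Abf1 was absent. Over all zones together they were called no more often than in the nuclear genome at large. Between no Abf1 and WT Abf1, 59 of the 1638 CpG sites were called (3.60%), 20 higher and 39 lower, against a background of 4.36% of all nuclear CpG sites. None of the 26 core sites was called by this model. An unadjusted p under 0.05 was found at 3 of them, beside 52083 of the 353646 nuclear sites. In the alternative model, limma on log odds, 8 sites were called over all zones. In the inner flank 4 were higher and 15 lower (6.29% of its sites), and in the outer flank 16 higher and 24 lower (3.05%). The inner share was above the nuclear background and the outer share below it. Neither share was tested. The median change over the 1638 sites was -0.0965 in log2 odds, beside 0.0344 over all nuclear sites. The calls were unevenly spread: 21 were at CEN16, 8 at CEN14, 8 at CEN15, 5 at CEN6 and 3 at CEN9. At 48 of the 59 sites (81.4%) the 4 libraries of one construct did not overlap those of the other, against 85.3% of all called nuclear sites. The number called was 36 and 32 without WT Abf1 replicate 1 or 2 and 31 and 35 without no Abf1 replicate 1 or 2, 26 in the 3 h and 16 in the 4 h aliquots alone, and 56 without the libraries labelled EM shuffle.

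The largest changes lay on the CDEI side of CEN16, across the divergent genes SNF8, which encodes a subunit of the ESCRT-II sorting complex, and HAT1, which encodes the catalytic subunit of a histone acetyltransferase for newly made histone H4. The CpG at -1519.5 bp (chromosome XVI, position 554495), between the genes and next to the Abf1 match shown above, had 72.4%, 68.2%, 83.6% and 63.8% in the 4 WT Abf1 libraries. It had 36.6%, 26.3%, 32.0% and 25.8% in no Abf1, and 71.5%, 72.8%, 67.2% and 70.5% in the libraries labelled EM shuffle. All no Abf1 libraries were thus below all others, and the site fell by 2.61 in log2 odds against WT Abf1 (SE 0.293, adjusted p = 1.12e-15, quasi-binomial model with limma). Its neighbour at -1526.5 bp fell by 2.32, from 69.4% to 31.0%. Away from the match the direction alternated. Within SNF8, the CpG at -1996.5 bp rose from 24.9% to 56.8% (2.04) and that at -1927.5 bp fell from 41.9% to 16.9%. The CpG at -1810.5 bp rose from 27.6% to 48.9%, and that at -1743.5 bp fell from 37.0% to 12.7% (by 2.00 on the log2 odds scale). Between the genes, the CpG at -1673.5 bp rose from 20.3% to 41.6%, and in HAT1 that at -927.5 bp rose from 23.4% to 48.1%. In all, 13 CpG sites of the CEN16 flank rose and 8 fell, all of them in the outer flank; the inner flank and core of CEN16 had no called site.

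**Figure D4:**
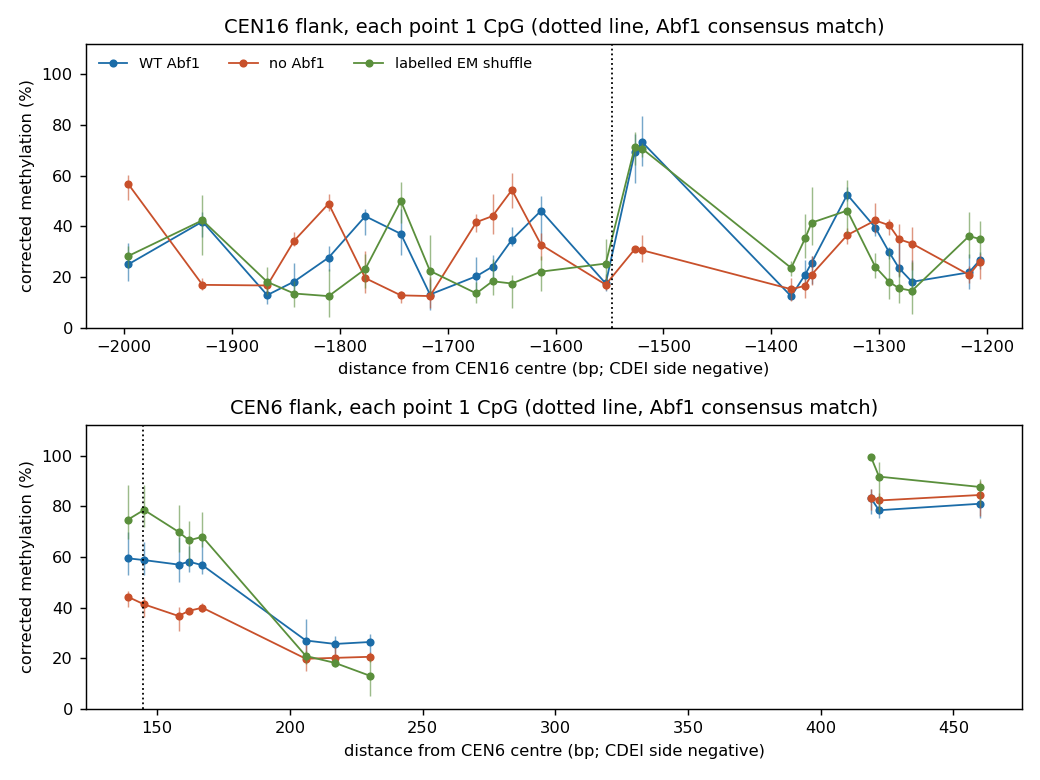
Corrected percent methylation (y axis) of single CpG sites by distance from the centre of CEN16 (upper panel) and CEN6 (lower panel, x axis in bp); points are means of 2 replicates, vertical lines span the 4 libraries of a construct, and dotted lines mark Abf1 consensus matches. At CEN16 the no Abf1 libraries fall from 73.1% to 30.5% at -1519.5 bp and rise from 24.9% to 56.8% at -1996.5 bp, and at CEN6 the 5 CpG sites from 139 to 167 bp are lowest in no Abf1.

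At CEN6 the called sites were adjacent and moved together. In the intergenic stretch between DEG1, a tRNA pseudouridine synthase gene, and LOC1, a gene for a nuclear factor of ribosome assembly, 5 consecutive CpG sites lay 139 to 167 bp from the centre on the CDEIII side, at and next to an Abf1 match. The CpG at 158 bp (chromosome VI, position 148726) had 50%, 61.0%, 52.3% and 67.7% in WT Abf1 and 30.6%, 40.3%, 35.4% and 38.7% in no Abf1. In the libraries labelled EM shuffle it had 61.8%, 62.4%, 80.7% and 75.9%. The no Abf1 libraries did not overlap the others, and the site fell by 1.19 in log2 odds against WT Abf1 (SE 0.252, adjusted p = 0.000198, quasi-binomial model with limma). The other 4 sites, named after their values were seen, fell by 0.850 to 1.11, and over the 5 sites the means were 56.7% to 59.4% in WT Abf1, 36.7% to 44.2% in no Abf1 and 66.5% to 78.6% in the libraries labelled EM shuffle. Between the last 2 groups all 5 rose by 1.36 to 1.85. From 206 to 230 bp, 3 further sites had 25.6% to 27.0% in WT Abf1 and 19.8% to 20.5% in no Abf1, and none was called.

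At CEN14 3 sites were called higher and 5 lower, and at CEN9 3 were called, all lower. At CEN14 the CpG at -1296 bp in DOM34, a ribosome rescue factor, had 48.7%, 59.5%, 41.0% and 50.8% in WT Abf1, 22.9%, 21.2%, 19.0% and 24.7% in no Abf1, and 35.5%, 41.9%, 32.8% and 56.5% in the libraries labelled EM shuffle. It fell by 1.75 in log2 odds without Abf1 (SE 0.261, adjusted p = 6.84e-09, quasi-binomial model with limma), and no library of no Abf1 reached any of the other 8. The CpG at -1383 bp, between RLP7 and DOM34 and closer to the Abf1 match, rose from 14.2% to 31.2% (1.40). The 2 CpG sites inside that match had 51.1% and 43.9% in WT Abf1 and 52.2% and 47.0% in no Abf1 and were not called. In the inner flank of CEN14 the CpG at -142 bp fell from 57.8% to 37.5% (by 1.16 in log2 odds), with 47.5% in the libraries labelled EM shuffle, and that at -264 bp rose from 26.1% to 38.6%. At CEN9, between the match and the open reading frame YIL001W, the CpG at -201.5 bp fell from 34.8% to 17.3% (by 1.35), and within YIL001W that at -351.5 bp fell from 44.7% to 25.4% (by 1.24). The libraries labelled EM shuffle lay between, at 24.2% and 34.0%.

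Among the remaining inner-flank sites with the largest changes, the CpG at 161 bp from CEN1, between TFC3 and NUP60, fell from 20.0% to 9.27%. The CpG at -143.5 bp from CEN15, between the cyclin gene PHO80 and the exosome gene RRP6, rose from 65.0% to 76.9%, and that at 496 bp from CEN8 rose from 22.8% to 37.3%. The calls at CEN1, CEN15 and CEN8 were lost in 6, 7 and 7 of 14 alternative settings (adjusted p up to 0.425, quasi-binomial model with limma), and that at -264 bp from CEN14 in 7. Of the 18 CpG sites named by the rule in this comparison, 7 stayed called in every setting, 6 of them at CEN16 and 1, at -1296 bp, at CEN14. The 14 settings, here and below, are not all distinct. Fitting only the pair compared gives the same fit as leaving out either replicate of the remaining construct. At CEN15, 5 of the 6 falls lay in the coding sequence of RRP6. The match at 136 bp from CEN2 had no called site. The 4 CpG sites in and at the end of it were among the most accessible, at 78.6% to 83.3% in WT Abf1 and 79.8% to 83.5% in no Abf1.

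The CpG sites within 200 bp of an Abf1 match, a distance chosen after the values were seen, can be set beside the rest. Without Abf1, 16 of 72 such members were called (22.2%), and 43 of the other 1566 (2.75%). Over the nuclear genome the same shares were 20.7% and 3.22%. The members near a match were therefore called about as often as any nuclear CpG near one, and most called members, 43 of 59, were not near one. No test was made of these shares.

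Between WT Abf1 and the libraries labelled EM shuffle, 4 members were called (0.244%), beside the background of 0.493%. All 4 lay in the outer flank. At CEN16 the CpG at -1613.5 bp fell from 46.1% to 22.1% and that at -1776.5 bp from 44.0% to 23.1%. At CEN8 the CpG at -1971 bp, between OSH7 and QCR10, rose from 19.9% to 48.9% (1.83 in log2 odds, adjusted p = 9.45e-06, quasi-binomial model with limma). At CEN11 the CpG at 577 bp, between MET14 and VPS1, rose from 49.5% to 70.9% (1.04, adjusted p = 0.0228), on chromosome XI, whose coverage was raised here as given above. The part of that coverage in the change was not tested. These calls were lost in 3 to 7 of 14 alternative settings (adjusted p up to 0.748, quasi-binomial model with limma). The number called was 0 in the 3 h aliquots and 1 in the 4 h aliquots alone.

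In the libraries labelled EM shuffle against no Abf1, 59 members were called (3.60%), 31 higher and 28 lower, against a background of 3.88%. CEN16 had 23 of them, CEN12 8, CEN6 7 and CEN15 6. At CEN16 the CpG at -1743.5 bp had 9.71%, 14.4%, 13.4% and 13.5% in no Abf1 and 50.2%, 41.2%, 57.4% and 51.5% in the libraries labelled EM shuffle, a rise of 2.68 (SE 0.341, adjusted p = 2.72e-12, quasi-binomial model with limma). The CpG at -1810.5 bp fell by 2.70, from 48.9% to 12.4%, which is also below the 27.6% of WT Abf1. All 8 called sites of CEN12 were rises in the coding sequence of DNM1, a dynamin-related GTPase of mitochondrial fission. This comparison gave the only called core sites, 3 of 26. The CDEI site of CEN6 had 1.60%, 5.15%, 3.80% and 2.59% in no Abf1 and 5.55%, 16.4%, 8.83% and 7.86% in the libraries labelled EM shuffle, a rise of 1.70 (SE 0.508, adjusted p = 0.0271). The CDEIII site of CEN6 fell by 1.39, from 21.3% to 8.54% (adjusted p = 0.0390), and the CDEI site of CEN15 rose by 1.45, from 5.99% to 13.4% (adjusted p = 0.0224). The libraries overlapped between the constructs at the last 2 of these. All 3 calls were lost in 7 or 8 of the 14 alternative settings, with adjusted p up to 0.754.

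Promoter windows, which begin 250 bp and end 51 bp before the coding sequence, show how the genes next to centromeres stood. Of 32 windows centred within 2 kb of a centromere, 3 were called lower in no Abf1 and none higher (9.38%), against a background of 11.6% of 5843 windows. The SNF8 window of CEN16 had 52.0%, 42.6%, 55.7% and 47.1% in WT Abf1 and 28.4%, 27.6%, 28.9% and 24.7% in no Abf1, and fell by 1.41 in log2 odds (SE 0.162, adjusted p = 1.43e-06, quasi-binomial model with limma), with 45.3% in the libraries labelled EM shuffle. The HAT1 window, which shares CpG sites with it, fell from 42.9% to 34.9%. The window of PRE3, a catalytic subunit of the proteasome, at CEN10 fell from 54.1% to 46.5%. SNF8 stayed called in all 14 alternative settings, whereas HAT1 was lost in 7 and PRE3 in 10 of them (adjusted p up to 0.369, quasi-binomial model with limma). In the 3 h or the 4 h aliquots alone, 1 window was called. The libraries labelled EM shuffle had 0 called windows against WT Abf1 (background 1.08%). There, 3 of the 32 had an unadjusted p under 0.05 in the model, beside 718 of all 5843 windows. Against no Abf1, 1 was called, SNF8, with a rise of 1.05 (background 11.0%).

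The genes of the proteins that act at centromeres were taken as a list of 53 (centromere-binding proteins, the Cse4 nucleosome, inner and outer kinetochore, cohesion and its control). Between no Abf1 and WT Abf1, 7 of the 53 promoter windows were called (13.2%, beside 11.6% of all windows), 6 lower and 1 higher, with a median of -0.0565 over the list and -0.00289 over all windows. WIP1, an inner kinetochore subunit, had 60.3%, 57.9%, 67.1% and 73.5% in WT Abf1 and 29.2%, 32.9%, 30.6% and 32.8% in no Abf1, and fell by 1.99 (SE 0.144, adjusted p = 1.42e-09, quasi-binomial model with limma), with 57.8% in the libraries labelled EM shuffle. SMC1, a cohesin subunit, fell from 74.4% to 61.1%. Smaller falls were called for SCC4 of the cohesin loader (67.8% to 58.8%), DSN1 of the outer kinetochore (49.4% to 39.4%), BIR1 of the chromosomal passenger complex (43.8% to 35.3%) and MCM16 of the inner kinetochore (33.1% to 24.6%). AME1, another inner kinetochore gene, rose from 33.0% to 39.8%. WIP1 and SMC1 stayed called in all 14 alternative settings. The others were lost in 4 (MCM16), 6 (AME1), 10 (DSN1) and 11 (SCC4 and BIR1) of them, with adjusted p up to 0.549 (quasi-binomial model with limma). In the EM shuffle libraries compared with WT Abf1, 1 window was called, that of CSE4 itself, which rose from 62.3% to 76.0% (0.518, adjusted p = 0.0383, background 1.08%) on chromosome XI; this call was lost in 11 of 14 settings (adjusted p up to 0.486, quasi-binomial model with limma). Against no Abf1, 4 windows rose (7.55%, background 11.0%): SLI15 of the chromosomal passenger complex, WIP1, SMC1 and BIR1. SLI15 was lost in 5 and SMC1 in 4 of 14 settings, and WIP1 and BIR1 in none. The other windows of the list were called in none of the 3 comparisons.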

How the data were processed

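The authors called bases and 5-methylcytosine with Dorado, aligned reads with minimap2 2.17 to sacCer3 (R64) with plasmid contigs added, used SAMtools 1.9 and 1.15 and R 4.2.0, and counted calls with modkit. Per CpG position and strand, the deposited files hold methylation as a fraction, occupancy as a fraction equal to 1 minus methylation, coverage as a count of calls, and the authors' correction factor as a ratio of the construct's genome average to that of WT Abf1. The methylated share is divided by that factor, so corrected values of the libraries labelled EM shuffle are raised and can exceed 100%. Multiplying fraction, factor and coverage gave whole methylated calls, within 5e-05 times the coverage, at 100% of positions.

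Calls of both strands and, for the tests across features, of both aliquots were summed, with a coverage minimum of 5. Zone means weight calls within a library. Sites, zones (tiles of 4 kb in the centromere geometry) and promoter windows (at least 2 CpG sites) were each fitted over the whole nuclear genome with a quasi-binomial logistic model over the 6 replicates (pseudocount 0.5, variances moderated by the squeezeVar function (limma 3.58.1, R 4.3.3), Benjamini-Hochberg adjustment per comparison, threshold 0.05). A logit offset removed each construct's genome average. The model was tested on simulated data. Differences of means used exact sign-flip or permutation tests, all two-sided. SDs of construct means and of differences within a replicate are over replicates. For differences between constructs the SD is the square root of the summed variances of the groups compared. Named sites are all called core sites and, in each flank zone, the 5 largest rises and 5 largest falls whose libraries do not overlap; named promoters are all called ones. The members, lists and tests were chosen with earlier results of these data known. Alternatives changed the correction, weighting, core borders, coverage minimum, aliquots, offset, variance moderation, model and samples. In the model, leaving out a replicate of the construct not compared repeats the fit of the pair alone, so counts of settings hold that fit more than once.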

Additional observations from a re-analysis of the deposited data

Results flagged for a closer look

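Groups of 4 libraries (zone means, CEN6 coverage, named CpG sites and called promoter windows) and of 6 replicates (differences of means), 116 groups in all, were examined for a value standing apart by Dixon's criterion at the 95% level, and 3 were found. Chance marks about 1 group in 20. The CpG at 577 bp from CEN11 had 59.5% in 1 of the 4 WT Abf1 libraries, the 4 h aliquot of replicate 1, and at most 47.9% in the others. The CpG at -1640.5 bp from CEN16 had 7.83% in 1 library labelled EM shuffle, the 3 h aliquot of replicate 2, and at least 19.5% in the others. The CpG at -264 bp from CEN14 had 45.9% in 1 no Abf1 library, the 4 h aliquot of replicate 1, and at most 36.7% in the others. The standing apart was in single aliquots, and its cause was not tested.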

How the results depend on the processing

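With 1 replicate left out, the 5 remaining cannot give a p under 0.05 in a sign-flip test, so results lost the threshold by construction and kept their direction: core minus outer -16.1 to -15.3, inner minus outer 13.02 to 13.5, core minus other windows -15.6 to -15.0, inner minus other windows 12.95 to 13.6, CDEIII minus CDEI 11.2 to 14.1, CDEI minus TCACGTG elsewhere -29.61 to -29.04, CDEIII minus TTTCCGAA elsewhere -10.7 to -8.82, and 4 h minus 3 h 1.87 to 2.13 (inner) and 1.28 to 1.58 (outer). Without the libraries labelled EM shuffle, which leaves the batch of the other constructs, these were -15.3, 12.7, -15.1 and 12.6 for the first 4 and 2.00 and 1.66 for the last 2; the later batch alone gave -16.4 for core minus outer and 14.6 for inner minus outer. Widening the core to 100 bp each side turned core minus outer to 8.47, and core EM shuffle minus WT Abf1 and minus no Abf1 to 1.02 and 0.0637. Weighting windows equally turned outer minus other windows to 1.24 (exact sign-flip p = 0.03125). The cause was not tested. CDEIII values here and in the next paragraph are those of the 8 centromeres that also have a CpG in CDEI.

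None of the following construct differences passed a test, and their signs turned. Uncorrected values were -4.57 (inner EM shuffle minus WT Abf1), -4.32 and -4.15 (inner and outer EM shuffle minus no Abf1), and 1.44 and -1.10 for TCACGTG elsewhere (no Abf1 minus WT Abf1, EM shuffle minus no Abf1). In the 4 h aliquots core and CDEIII no Abf1 minus WT Abf1 were -0.312 and -0.611, and the difference of core minus outer between EM shuffle and WT Abf1 was -0.504 (-0.385 over sites, -0.446 over centromeres, -0.232 without CEN6, -0.266 without CEN11). In the 3 h aliquots core EM shuffle minus WT Abf1 was 0.451 and TCACGTG elsewhere no Abf1 minus WT Abf1 0.0818. CDEI no Abf1 minus WT Abf1 was -0.241 without CEN6. Leaving out each replicate gave -1.38 to 2.92 for core no Abf1 minus WT Abf1, -2.68 to 1.61 for core EM shuffle minus WT Abf1, -1.11 to 1.19 for their core minus outer, -0.180 to 2.31 and -1.76 to 0.609 for inner and outer EM shuffle minus WT Abf1, -0.304 to 0.336 and -2.40 to 4.47 for CDEI and CDEIII no Abf1 minus WT Abf1, and -0.789 to 0.706 for TCACGTG elsewhere.

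Zones called in no Abf1 against WT Abf1 were 2 with the offset per replicate, 1 with variances moderated within a zone class and 3 with both; in EM shuffle against no Abf1 they were 2, 1 and 2, 1 with only the pair fitted, 0 to 1 without a replicate and 25 without the offset, and in EM shuffle against WT Abf1 11 without the offset. These choices of offset and class were added after seeing the data. For the alternative settings no share over all features is given here, so the counts in this paragraph have no background beside them. Sites called in no Abf1 against WT Abf1 were 8 with limma, 26 and 16 in the 3 h and 4 h aliquots, and 31 to 56 without a replicate. In EM shuffle against WT Abf1 they were 0 with limma, 0 and 1 in the aliquots, 30 without the offset, 7 with the offset per replicate and 0 to 4 without a replicate. In EM shuffle against no Abf1 they were 9 with limma, 15 and 29 in the aliquots, 172 without the offset and 15 to 62 without a replicate. Promoters called in no Abf1 against WT Abf1 were 1 without the offset and in either aliquot and 1 to 2 without a replicate; without the offset EM shuffle had 4 against WT Abf1 and 10 against no Abf1. The replicate numbers do not pair the samples: deviations of same-numbered replicates correlated at -0.008, 0.014 and -0.037 over 6863 windows. With a replicate block, sites called were 52, 4 and 49 in the 3 comparisons, and the block changed no zone or promoter count. Depth limits single sites in every zone, at a mean of 40.3 (core), 39.2 (inner) and 37.7 (outer) calls per site in the shallowest library.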
